A study of Mus musculus with 12 samples.

Results

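The 10 genes described here, Mitf, Sox10, Pax3, Tyr, Tyrp1, Dct, Pmel, Mlana, Mc1r and Rab27a, make up the transcription factors, receptor, enzymes, structural proteins and transport protein by which a melanocyte is recognised, and they are 10 of the 18193 genes measured. They were chosen by name, with every probe set annotated to 1 of them alone, which gave 23 of 34945 probe sets. A gene is represented by the probe set that read highest on average over all 12 arrays, and its other probe sets are given beside it.

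C790 is a Nras-mutant mouse melanoma cell line. In the study its cells carried 2 lentiviral vectors, 1 for the doxycycline-responsive activator and 1 for Oct4, Sox2 and Klf4 under its control, and doxycycline (dox) was used to switch the 3 factors on for partial reprogramming. Induction stands here for doxycycline, since only Oct4 of the 3 passed the test as higher in +dox DMSO than in -dox DMSO and Sox2 read lower, on probe sets that may not read the vector copies. RNA was taken at day 20, after 72 h with trametinib, an inhibitor of the kinase MEK in the MAPK pathway, or with its solvent DMSO. The groups were +dox trametinib (doxycycline, drug), +dox DMSO (doxycycline, solvent), -dox trametinib (both vectors carried, no doxycycline, drug) and -dox DMSO (both vectors carried, no doxycycline, solvent), with 3 Affymetrix GeneChip mouse genome arrays each. All 4 groups are of 1 line, the vectors are shared by all of them, and the labels do not say whether the 3 arrays of a group came from separate cultures. The study describes its data in general as coming from independent experiments, without naming the arrays in particular, so that p-values measure the spread between these arrays, which may be technical. In whole cultures, fewer cells of a type and less RNA per cell cannot be told apart.

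Melanocytes arise from the neural crest under Pax3 and Sox10, which switch on Mitf, the basic helix-loop-helix factor that drives the pigment programme. Mitf binds E-box sequences in the promoters of the pigment enzymes, melanin is made on Pmel fibrils inside melanosomes, and the finished melanosome is carried to the cell tip by Rab27a with its partners Mlph and Myo5a. Dedifferentiated melanoma cells are known for losing the late pigment genes while they keep parts of the lineage programme, and the MAPK pathway is known to act on Mitf.

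Promoter sequence was looked at as well, and no motif searched was in the windows of all these genes. RefSeq promoter windows on GRCm38.p6, from 250 bases before to 50 bases after the start, were at hand for 6 of the 10 genes, with 9 windows in all (3 for Mitf, 2 for Rab27a). The E-box letters CATGTG, which read CACATG on the other strand, were in 4 of the 9 windows, those of Tyr, Tyrp1, Dct and Mc1r (at 2 places in the last 2), against 14.15% of all 32851 windows. The palindromic E-box CACGTG was in 1 Rab27a window, against 7.15% of all windows, and the cAMP response element TGACGTCA, also a palindrome, was in 1 Mitf window, against 1.79% of all windows. None of these 3 motifs holds another. The stretches around a match of each kind are printed 5′ to 3′ on the strand of the gene, with the matched letters in capitals.
Tyr (chr7:87493488-87493573, minus strand): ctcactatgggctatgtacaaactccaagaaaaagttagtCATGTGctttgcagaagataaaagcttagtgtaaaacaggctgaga
Tyrp1 (chr4:80834127-80834212, plus strand): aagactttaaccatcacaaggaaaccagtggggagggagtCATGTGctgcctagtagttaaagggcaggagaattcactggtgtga
Dct (chr14:118052351-118052436, minus strand): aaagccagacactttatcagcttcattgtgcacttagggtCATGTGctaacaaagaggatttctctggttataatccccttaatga
Rab27a (chr9:73063898-73063947, plus strand): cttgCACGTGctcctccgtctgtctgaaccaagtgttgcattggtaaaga
Mitf (chr6:97991590-97991677, plus strand): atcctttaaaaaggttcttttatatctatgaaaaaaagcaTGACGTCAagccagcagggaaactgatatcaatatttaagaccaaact
The first letter in capitals lies 21 bases before the start for Tyr, 46 before it for Tyrp1, 150 before it for Dct, 246 before it for Rab27a and 153 before it for Mitf. These matches describe letters, and no binding was measured here. The motifs were chosen after the values were seen, and E-boxes in pigment enzyme promoters are known sites of Mitf. The shares are therefore a description and not a test.

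To judge which of the genes were expressed at all, a background level was taken from 83 probe sets of olfactory, vomeronasal and taste receptors. These receptors were assumed not to be expressed in the cells, which was not tested. The 95th percentile of the means of these probe sets was 4.88 on the log2 scale. The group mean of a gene had to lie above it in at least 1 group. By that choice 5 of the 83 receptor probe sets lay above the level, the highest with a mean of 5.59. Readings a little above the level can therefore be unspecific. Of the 10 melanocyte genes, 5 lay above that level (Mitf, Pax3, Sox10, Pmel and Rab27a), 4 of them in every group and Rab27a in +dox DMSO alone. Over all genes, 68.4% lay above it in at least 1 group. The same 5 genes were above the level when the 90th percentile (4.62) or the 99th percentile (5.42) was used. Tyr, Tyrp1, Dct, Mc1r and Mlana were below it on all 12 arrays, so that both pigment enzymes of the Tyrp1 family, tyrosinase itself, the melanocortin receptor and the melanocyte antigen Mlana were not above background in this melanoma line.

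**Figure D1:**
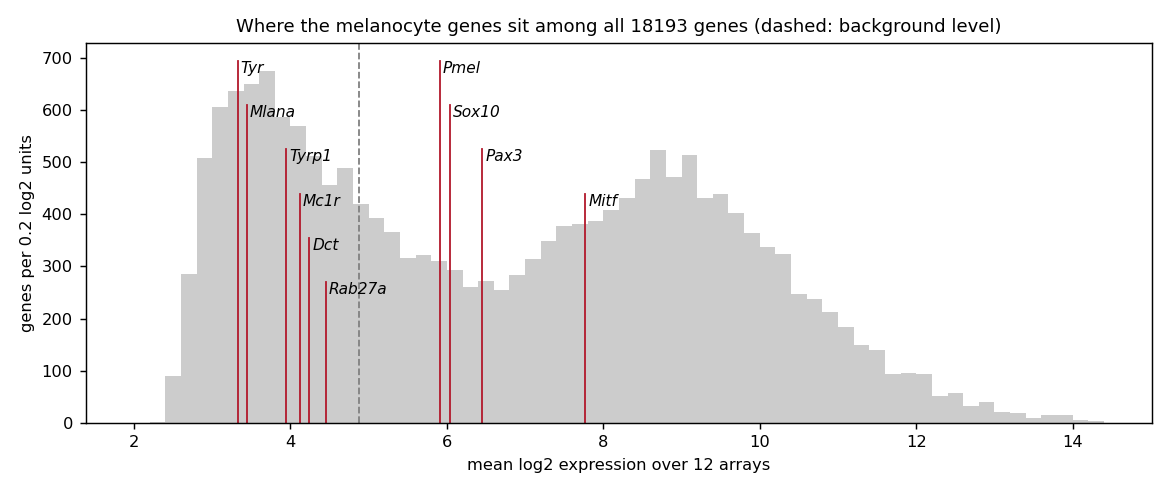
Number of genes (vertical axis, per 0.2 log2 units) by mean log2 expression over the 12 arrays (horizontal axis), with a line for each of the 10 melanocyte genes and a dashed line at the background level of 4.88. Mitf lies highest at 7.77 and Tyr lowest at 3.33, and Rab27a lies left of the dashed line because its mean over 12 arrays is 4.45.

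Among all genes ranked by mean level, Mitf stood at the 60.0th percentile, Pax3 at the 48.5th, Sox10 at the 45.4th and Pmel at the 44.2nd. The others lay between the 10.4th percentile, for Tyr, and the 28.7th, for Rab27a. Probe sets differ in how strongly they hybridise, so these ranks place probe sets and do not order the transcripts.

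**Figure D2:**
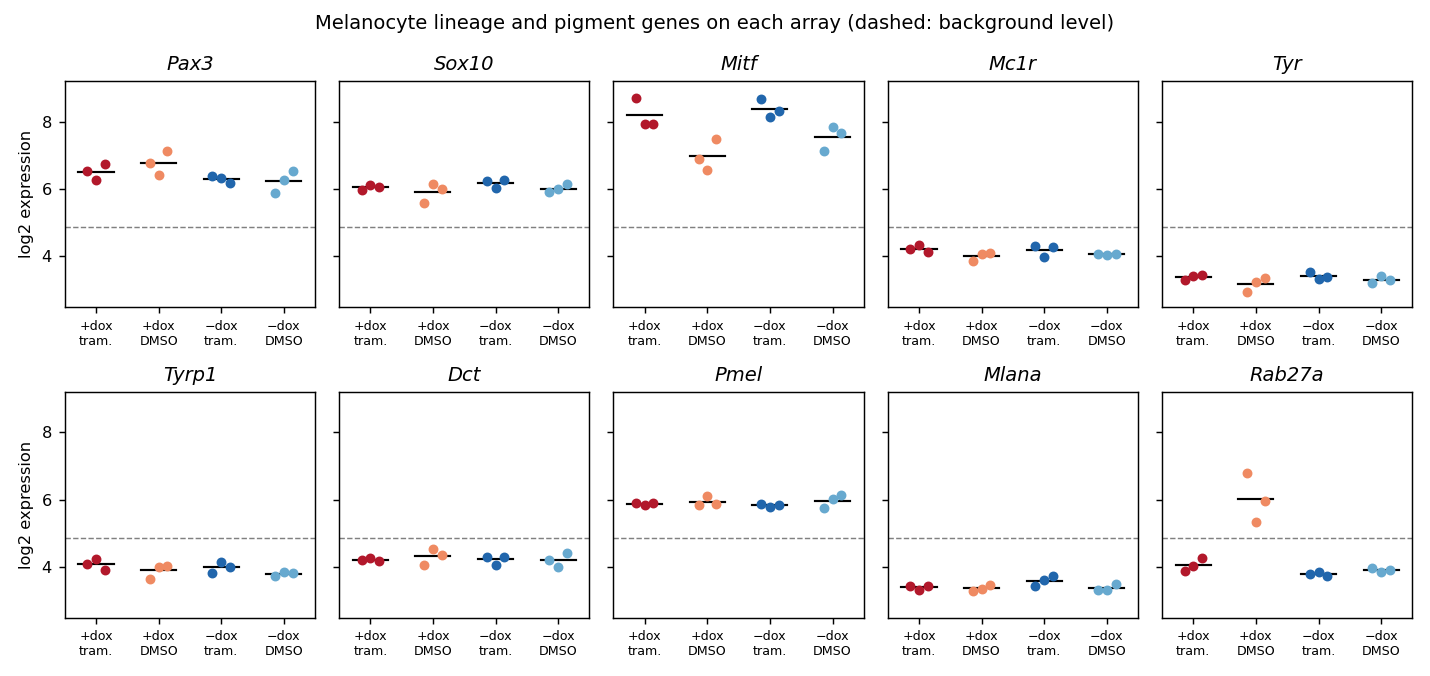
Log2 expression (vertical axis) of the 10 melanocyte genes on each array, with 3 points and the mean (bar) for +dox trametinib, +dox DMSO, -dox trametinib and -dox DMSO from left to right, and the background level of 4.88 dashed. The Mitf arrays with trametinib lie above those with DMSO in each state, Rab27a is above the dashed line in +dox DMSO alone, and Mc1r, Tyr, Tyrp1, Dct and Mlana stay below it on every array.

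Pax3, the paired-box factor at the top of the lineage, was read above the background level by all 3 of its probe sets. Its log2 values were 6.52, 6.28 and 6.75 in +dox trametinib, 6.78, 6.41 and 7.13 in +dox DMSO, 6.38, 6.32 and 6.18 in -dox trametinib and 5.89, 6.26 and 6.53 in -dox DMSO. The mean was highest in +dox DMSO, but 1 of its arrays lay below the highest -dox DMSO array. Between same-numbered arrays Pax3 was higher in +dox DMSO in each of the 3 pairs, by 0.89, 0.15 and 0.60, and its other probe sets were higher in all 3 pairs too (by 0.63, 0.31 and 0.60, and by 0.71, 0.28 and 0.94). Pax3 differed by 0.55 between +dox DMSO and -dox DMSO (SE 0.20, 95% interval 0.10 to 0.99), which did not pass the test (adjusted p = 0.149, limma with Benjamini-Hochberg adjustment over all genes, and 0.0901 with the replicate number as a block). With each array centred on its median, the difference was 0.64 and the adjusted p 0.0446. The other probe sets of Pax3 gave 0.51 and 0.64 for the same comparison, with adjusted p of 0.312 and 0.143 over all probe sets. In the other 3 comparisons of groups the changes of the main Pax3 probe set lay between -0.26 and 0.22 and those of the others between -0.37 and 0.55, and the trametinib responses of the states differed by -0.32 on the main one, none past the threshold.

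Sox10, the neural crest factor that acts with Pax3 on Mitf, was nearly level across the groups. Its values were 5.97, 6.12 and 6.07 in +dox trametinib, 5.59, 6.16 and 6.01 in +dox DMSO, 6.23, 6.04 and 6.26 in -dox trametinib and 5.90, 5.99 and 6.15 in -dox DMSO. The groups overlapped in every comparison, and the changes lay between -0.12 and 0.16 with standard errors of 0.14. A second Sox10 probe set was above the background level too, with a mean of 5.62 over the 12 arrays, and the third, at 4.64, was not. The mean of the second was level with that of the highest receptor probe set, 5.59.

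Mitf, the master regulator of the melanocyte, had the highest reading of the 10 genes, and it rose with trametinib in +dox cells. In +dox cells its values were 8.70, 7.93 and 7.94 with trametinib, against 6.88, 6.56 and 7.47 with DMSO. In -dox cells they were 8.68, 8.13 and 8.30 with trametinib, against 7.13, 7.84 and 7.66 with DMSO. In both states every trametinib array lay above every DMSO array. Means were 8.19 ± 0.44 in +dox trametinib, 6.97 ± 0.46 in +dox DMSO, 8.37 ± 0.28 in -dox trametinib and 7.54 ± 0.37 in -dox DMSO (SD, n = 3 each).

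In +dox cells trametinib raised Mitf by 1.22 on the log2 scale, or 2.33-fold (SE 0.28, 95% interval 0.60 to 1.84, adjusted p = 0.00765, limma). In -dox cells the difference was 0.83 (SE 0.28, 95% interval 0.21 to 1.45), with an adjusted p of 0.0584 by limma that did not pass the threshold. The -dox value passed in 7 of the 21 other ways of processing that were tried, with adjusted p between 0.0149 and 0.174. The difference between these 2 responses was 0.39 (95% interval -0.49 to 1.27, limma adjusted p = 0.769), so that the Mitf response to trametinib was not shown to differ between the states. Arrays of +dox and -dox cells overlapped both with DMSO (a difference of -0.57, SE 0.28, adjusted p = 0.294) and with trametinib (-0.18, adjusted p = 0.889). Between same-numbered arrays Mitf was lower in +dox DMSO in every pair, with differences of -0.25, -1.28 and -0.19. With the replicate number as a block that comparison did not pass either (limma adjusted p = 0.279). The pairs under trametinib differed by 0.02, -0.20 and -0.36. With trametinib in +dox cells they differed by 1.82, 1.37 and 0.47.

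The second Mitf probe set, 1422025_at, was below the background level on every array, between 3.02 and 4.24. Tested among all probe sets, it was higher with trametinib in +dox cells by 0.45 (adjusted p = 0.0413) and in -dox cells by 0.72 (adjusted p = 0.00530). These 2 shifts have the direction of the main probe set, but a probe set under the background level gives no readable size. Between +dox DMSO and -dox DMSO its same-numbered pairs went both ways, by -0.12, -0.20 and 0.19. Some markers of other cells passed with the drug too, beside shares of all genes of 13.8% higher and 12.5% lower in +dox cells. In -dox cells those shares were 11.6% and 10.8%. Of 7 keratinocyte markers 1 rose in +dox cells and 1 fell in -dox cells, and of 5 endothelial markers none passed. Of 7 fibroblast markers 3 rose in each state and 1 fell in -dox cells, with mean levels over the 7 of 6.57 to 6.71 in +dox trametinib, 5.56 to 5.93 in +dox DMSO, 7.57 to 7.75 in -dox trametinib and 7.02 to 7.16 in -dox DMSO. Of 5 Schwann cell markers 2, Erbb3 and Egr2, fell in each state, with mean levels over the 5 of 4.34 to 4.93, 5.24 to 5.44, 4.53 to 4.65 and 5.93 to 6.22 in the same order of groups. Their part in the Mitf result was not tested.

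**Figure D3:**
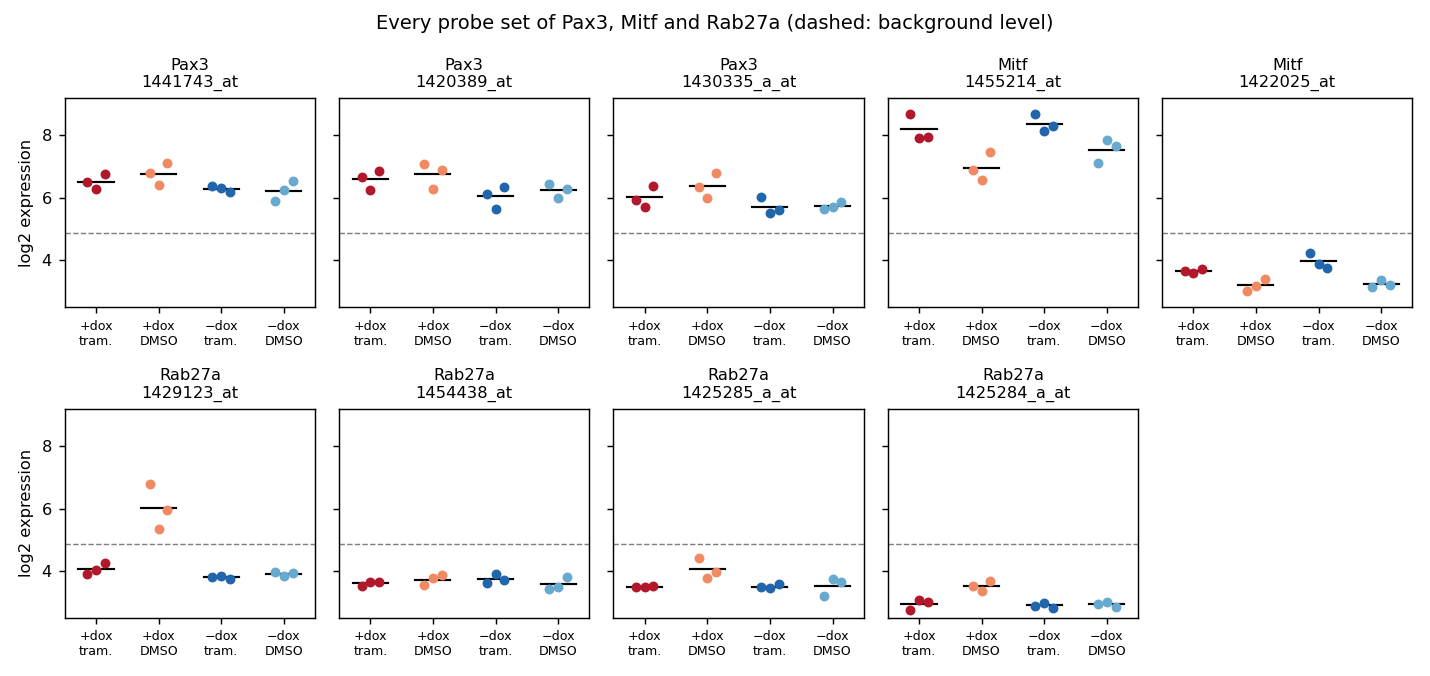
Log2 expression (vertical axis) on each array for every probe set of Pax3 (3), Mitf (2) and Rab27a (4), with the mean of each group as a bar and the background level of 4.88 dashed. The 3 Pax3 probe sets lie above the dashed line, while 1 of 2 for Mitf and 3 of 4 for Rab27a lie below it on every array.

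Mc1r, the receptor for melanocyte-stimulating hormone on the melanocyte surface, was between 3.86 and 4.33 on the 12 arrays. Its second probe set was lower still, with a mean of 3.37. Both lie below the background level, and no change is given.

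The 3 enzymes of melanin synthesis were not above the background level in any group. Tyrosinase (Tyr), which catalyses the first steps, lay between 2.96 and 3.53, Tyrp1, which acts on later intermediates, between 3.66 and 4.24, and Dct, the dopachrome tautomerase, between 4.01 and 4.55. None of the 3 passed the test in any comparison of the groups. One further Tyrp1 probe set, 1415862_at, was higher by 0.42 with trametinib in +dox cells (adjusted p = 0.0133 among all probe sets), with values of 3.56, 3.45 and 3.55 in +dox trametinib and 3.12, 3.22 and 2.96 in +dox DMSO. Those arrays did not overlap, and all 6 lay under the background level.

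Of the structural proteins, Pmel, which forms the fibrils of the early melanosome, was above the background level on all arrays, and Mlana, a small melanosomal membrane protein, on none. Pmel values were 5.91, 5.83 and 5.89 in +dox trametinib, 5.83, 6.11 and 5.87 in +dox DMSO, 5.88, 5.78 and 5.85 in -dox trametinib and 5.76, 6.03 and 6.13 in -dox DMSO. All groups overlapped, and Pmel changed by no more than 0.14 in either direction, with standard errors of 0.11. With arrays weighted by quality, Pmel was lower with trametinib in -dox cells by 0.27, a change of -0.27 that passed (limma adjusted p = 0.0135), and in the fits without 1 array that change reached -0.24. Pmel has 1 probe set, whose mean of 5.91 over the 12 arrays was not far above that of the highest receptor probe set, 5.59. Mlana lay between 3.30 and 3.75.

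Rab27a, the small GTPase that links melanosomes and other secretory organelles to their motor, was the only member that passed the test with induction. Its values were 3.89, 4.02 and 4.26 in +dox trametinib, 6.79, 5.35 and 5.95 in +dox DMSO, 3.81, 3.85 and 3.74 in -dox trametinib and 3.98, 3.85 and 3.92 in -dox DMSO. The 3 +dox DMSO arrays stood above the background level, and the other 9 arrays below it. The spread was widest in +dox DMSO, with 6.03 ± 0.72, against 3.92 ± 0.065 in -dox DMSO (SD, n = 3 each).

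The level of Rab27a in -dox DMSO is only bounded by the background. Its mean in +dox DMSO lay 1.15 above that level on the log2 scale, with a fitted change of 2.11 (SE 0.27, limma adjusted p = 0.00153). A distance of this kind is given as the least change between group means. It has no interval, and +dox DMSO array 2, at 5.35, lay closer to the level. In +dox cells Rab27a fell with trametinib by at least 1.15 between the group means, with a fitted change of -1.97 (SE 0.27, limma adjusted p = 3.4e-04). In -dox cells, and between the trametinib groups, both sides were below the background and no change is given. Set against each other, the Rab27a responses to trametinib of the 2 states differed by -1.86 in the fit (SE 0.38, unadjusted p = 4.9e-04), which did not pass after adjustment over all genes (adjusted p = 0.0807, limma). It passed in 4 of 20 other ways of processing, with adjusted p between 0.00672 and 0.199. These comparisons share the +dox DMSO arrays.

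The other 3 probe sets of Rab27a were below the background level on all 12 arrays. In the test of single probe sets 1425284_a_at was higher in +dox DMSO than in -dox DMSO by 0.59 (adjusted p = 0.0201), and lower with trametinib in +dox cells by 0.57, a change of -0.57 (adjusted p = 0.00484). The probe set 1425285_a_at had changes of 0.53 (adjusted p = 0.120) and -0.57 (adjusted p = 0.0334) in the same comparisons, and 1454438_at passed in neither. The call above the background level therefore rests on 1 probe set, and with the mean of all 4 in its place Rab27a was not above it.

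Counted over the 10 genes, 1 passed the test between +dox and -dox cells under DMSO, Rab27a, which was higher, where 6.15% of all genes passed and 2.87% were higher. Under trametinib none of the 10 passed between +dox and -dox cells, where 3.37% of all genes did, and none reached an unadjusted p under 0.05. With trametinib in +dox cells 2 of the 10 passed, Mitf higher and Rab27a lower, where 26.2% of all genes passed, 13.8% higher and 12.5% lower. With trametinib in -dox cells none passed by limma, where 22.4% of all genes did, and 1, Mitf, had an unadjusted p under 0.05. The trametinib arrays of -dox cells lay wholly above the DMSO arrays for 20.4% of all genes, and in +dox cells for 22.1%, so that the separation of the Mitf arrays is one that many genes show. For Rab27a, arrays lay wholly apart in its direction for 11.3% of all genes with induction under DMSO and for 18.6% with trametinib in +dox cells. The contrast of both drug responses passed for none of the 10 and for 0.33% of all genes, and Rab27a was the 1 member with an unadjusted p under 0.05. The counts of 2 and 0 with trametinib and of 1 and 0 with induction are not far from those shares of all genes. The median change of the 10 genes was -0.03, 0.01, 0.08 and 0.12 in these 4 comparisons of groups, against 0.01, -0.02, 0.02 and 0.06 for all genes.

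**Figure D4:**
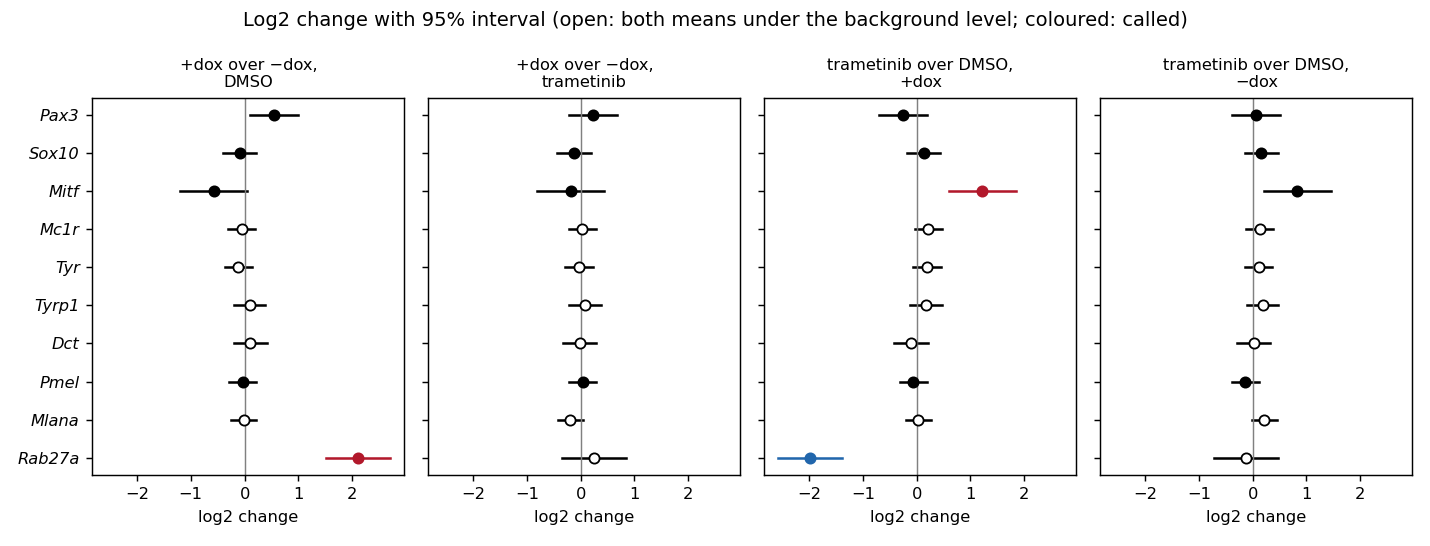
Log2 change (horizontal axis) with its 95% interval for the 10 melanocyte genes in the 4 comparisons of groups. Red marks are genes that passed the test as higher and blue as lower, and open points are genes whose 2 group means are both below the background level. Mitf at 1.22 and Rab27a at -1.97 stand out with trametinib in +dox cells, and Rab27a at 2.11 for +dox over -dox under DMSO.

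Most of the other genes listed for building and moving melanosomes were above the background level. Of 25 other melanosome genes measured, 21 were above the background level in at least 1 group, against 68.4% of all genes. The 4 that were not are the transporters Slc45a2 and Oca2, the receptor Gpr143 and the linker Mlph. With the 90th percentile as the level only Oca2 and Gpr143 were not above it, since Mlph averaged 4.79 in +dox DMSO and Slc45a2 4.67 in -dox trametinib, and with the 99th percentile 5 genes were not. Those above it included the Hermansky-Pudlak, BLOC-1 and AP-3 genes, which serve lysosome-related organelles in many cell types. The single Gpr143 value of 5.79, on array 1 of +dox trametinib, was the only one of its 12 above the level.

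With trametinib 6 of the 25 rose and 1 fell in +dox cells, where 13.8% of all genes rose and 12.5% fell, and 5 rose and 1 fell in -dox cells, where 11.6% of all genes rose and 10.8% fell. Taken in either direction, these counts of 7 and 6 lie near the shares of all genes (26.2% and 22.4%). Myo5a, the myosin motor that pulls melanosomes, had values of 10.08, 9.90 and 9.66 in +dox trametinib, 9.13, 9.40 and 9.02 in +dox DMSO, 9.95, 10.01 and 10.16 in -dox trametinib and 9.55, 9.21 and 9.31 in -dox DMSO. Trametinib raised it by 0.70 with induction and by 0.68 without it (adjusted p = 0.00369 and 0.00543, limma), with no overlap in either state. The BLOC-1 gene Dtnbp1 rose by 0.64 and 0.73, and Bloc1s3, of the same complex, by 0.80 and 0.95. Another gene of that complex, Bloc1s2, fell by 0.99 with induction and fell by 0.67 without it, so that the subunits did not move one way. In +dox cells the copper pump Atp7a, which loads tyrosinase, rose by 0.90 and the adaptor gene Ap3d1 by 0.85. These calls passed in all 12 fits without 1 array.

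Between +dox and -dox cells under DMSO 3 of the 25 rose and 1 fell, where 2.87% of all genes rose and 3.28% fell. Hps3, a BLOC-2 subunit, had values of 8.46, 8.83 and 8.43 in +dox DMSO and of 7.67, 7.62 and 7.69 in -dox DMSO. It rose by 0.91 (SE 0.12, adjusted p = 0.00141, limma) and its arrays did not overlap. Hps5, of the same complex, rose by 0.38 and Bloc1s2 by 0.60, while Lyst, which governs lysosome size, fell by 0.68. Without 1 array at a time Hps3 passed in all 12 fits, Hps5 and Bloc1s2 in 9 and Lyst in 3. Under trametinib, where 1.95% of all genes rose and 1.42% fell with induction, none of the 25 rose and 2 fell, Dtnbp1, by 0.42 and in only 2 of those 12 fits, and Sytl2.

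Sytl2 encodes an effector that binds Rab27a in secretion and in melanosome docking. Its values were 4.17, 4.0 and 3.83 in +dox trametinib, 4.24, 3.94 and 4.01 in +dox DMSO, 6.26, 8.01 and 5.98 in -dox trametinib and 4.63, 6.76 and 5.96 in -dox DMSO. Sytl2 was below the background level on all 6 +dox arrays and above it on 5 of the 6 -dox arrays. By group means it fell by at least 1.87 in +dox trametinib against -dox trametinib (limma adjusted p = 0.0188). That call was lost without -dox trametinib array 2 or without any 1 of the +dox trametinib arrays (adjusted p up to 0.0647). Under DMSO the bound was 0.91 and the test was not passed (adjusted p = 0.0928). By the probe sets chosen, Rab27a and this effector were never both above the background in the mean of 1 group. For Rab27a this rests on 1 probe set, and no relation between the 2 genes was tested.

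Among 18 other regulators of the lineage 13 were above the background level, where 68.4% of all genes were. The receptor genes Kit and Ednrb, through which melanoblasts migrate, were not, nor was Foxd3 of the early neural crest, while Kitl, the ligand of Kit, averaged 10.2. With trametinib in +dox cells 3 of the 18 rose and none fell, and the 3 that rose lie near the share of all genes (13.8%). Tfe3 rose by 0.63 and Tfeb by 0.72, both close relatives of Mitf that bind the same E-boxes and are known for lysosome genes, and Sox5, a Sox factor known to oppose Sox10, rose by 1.04 (adjusted p = 0.00342, 0.00669 and 0.0282, limma). The call of Sox5 was lost without +dox DMSO array 2 or 3 or +dox trametinib array 1 or 3 (adjusted p up to 0.113). Tfec, a further relative, was below the background level. In -dox cells, where 11.6% of all genes rose, 1 of the 18 rose, Zeb1, by 0.44. Tfe3 and Tfeb were not called there, but averaged 9.29 and 7.73 with trametinib, against 9.05 and 7.42 with DMSO. The contrast of both drug responses passed for none of the 18, where 0.33% of all genes passed. It passed for none of the 25 melanosome genes or the 13 Mitf targets either. Responses called in 1 state alone were thus not shown to differ between the states.

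With induction under DMSO 2 of the 18 fell and none rose, where 3.28% of all genes fell. Snai2, a neural crest and melanoblast factor, had values of 9.55, 9.44 and 9.37 in +dox DMSO and of 10.18, 11.29 and 11.23 in -dox DMSO. It fell by 1.45 (SE 0.30, adjusted p = 0.0165, limma), but did not pass without array 2 or 3 of either group (adjusted p up to 0.0696). Zeb2, which keeps melanocytes differentiated, fell by 0.71 under DMSO and by 0.88 under trametinib (adjusted p = 0.0419 and 0.0229), and passed in 5 and 7 of the 12 fits without 1 array. Fibroblast markers moved the same way: Col1a1, Col3a1, Pdgfra and Dcn, 4 of the 7 measured and the 4 above the background, all fell with induction under DMSO. The mean level over the 7 was between 5.56 and 5.93 on the +dox DMSO arrays and between 7.02 and 7.16 on the -dox DMSO arrays. In the same comparison 1 of 7 keratinocyte and 1 of 5 Schwann cell markers fell. Of 5 endothelial markers 1 rose, where 2.87% of all genes rose. The part of these markers in the falls of Snai2 and Zeb2 was not tested.

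Of 13 genes known as Mitf targets outside the melanosome, 8 were above the background level, a share no higher than that of all genes (68.4%). With trametinib 3 rose and 2 fell in each state, where 26.2% of all genes passed in +dox and 22.4% in -dox cells. Cited1, a transcriptional co-activator of pigment cells, had values of 7.39, 6.68 and 6.24 in +dox trametinib, 5.22, 3.99 and 4.72 in +dox DMSO, 5.40, 6.12 and 7.13 in -dox trametinib and 4.27, 4.32 and 3.63 in -dox DMSO. By group means it rose by at least 1.89 in +dox cells and at least 1.34 in -dox cells (adjusted p = 0.00441 and 0.00554, limma). The arrays of drug and solvent did not overlap. Bcl2, the survival gene, fell by 1.07 in +dox and fell by 2.19 in -dox cells. Cdk2, the cell cycle kinase, fell by 0.77 in +dox and fell by 0.72 in -dox cells. The 3 that rose in -dox cells included the receptor gene Met, by 0.64, and Hif1a, by 0.57, and those in +dox cells included Ctsk, by 0.54, and Tbx2, which stayed below the background in both means. The targets thus moved in both directions. Hif1a passed in 8 of the 12 fits without 1 array and Ctsk in 11, all but that without +dox trametinib array 1. With induction under DMSO 2 of the 13 rose and none fell, where 2.87% of all genes rose and 3.28% fell. Met rose by 0.77 and the cell cycle inhibitor gene Cdkn1a by 0.89, in 10 and 8 of those fits. Under trametinib 2 of the 13 were higher in +dox cells and 1 lower, where 1.95% of all genes rose and 1.42% fell. Bcl2 was higher by 1.26, in all 12 fits, and Hif1a lower by 0.79, a change of -0.79, in 10. Tbx2 was higher in 10 fits, with both means below the background.

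**Figure D5:**
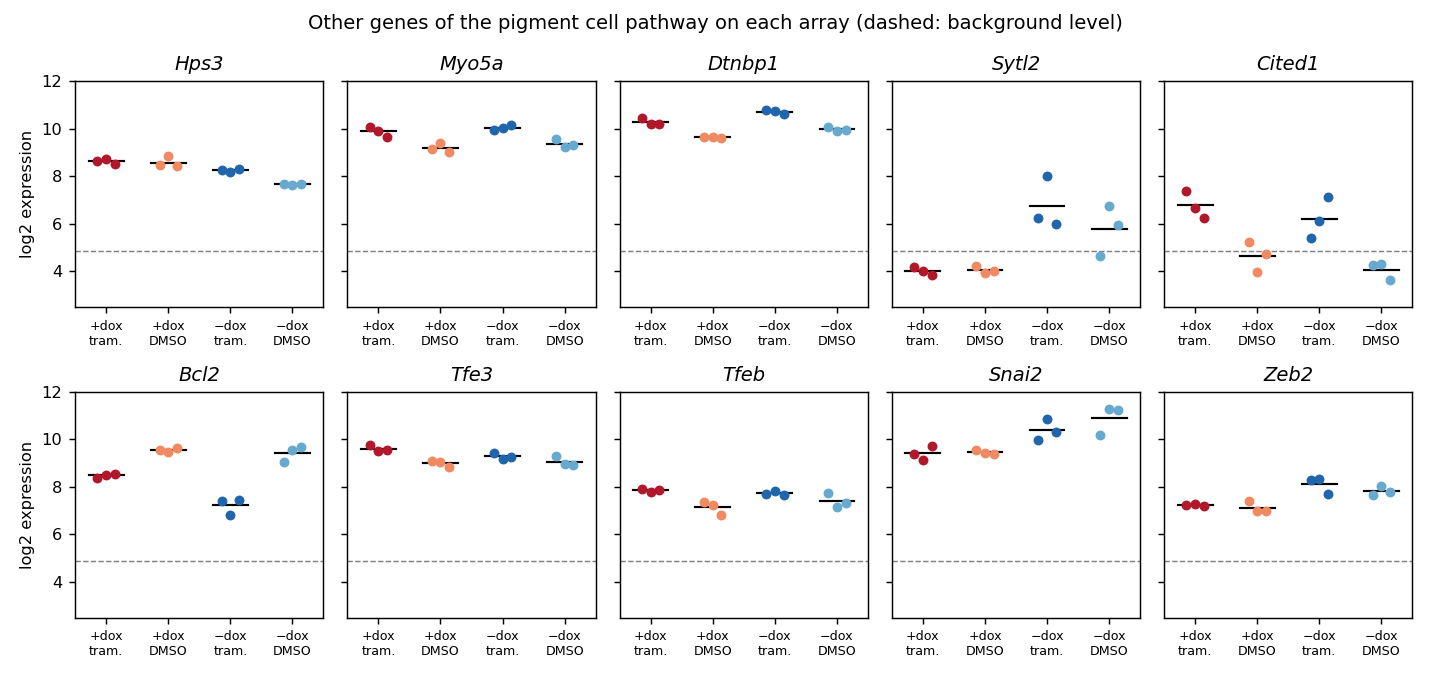
Log2 expression (vertical axis) on each array of 10 further genes of the pigment cell pathway that passed the test in at least 1 comparison, with the group mean as a bar and the background level of 4.88 dashed. Cited1 is above the dashed line on every trametinib array, Bcl2 is lower on them, and Sytl2 is below the line on all 6 +dox arrays.

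Likeness over the 12 arrays was measured by Pearson's r among genes above the background level, as a description, since the arrays share their groups. The genes most like Mitf were Lipo3 and Zfp983 (r = 0.96 for both). Those most like Rab27a were Trh (r = 0.95) and Nxpe4 (r = 0.94). The nearest genes to Sox10 were Syt6 and Sharpin (0.93 and 0.92), to Pax3 Rnf138 and Malt1 (0.91 and 0.90), and to Pmel Rbpjl and Rpp25l (0.89 and 0.87).

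Rab27a is also a gene of blood cells, so macrophage markers were set beside it. Of 6 markers, 4 were above the background level in at least 1 group (Csf1r, Cd68, Itgam and Cd14), while Ptprc, at most 3.04, and Adgre1, at most 4.19, were below it on all 12 arrays. With induction under DMSO 1 of the 6 rose, Itgam, and 1 fell, Cd14, where 2.87% of all genes rose and 3.28% fell. With trametinib in +dox cells Itgam fell and the other 5 did not pass, where 12.5% of all genes fell. Itgam thus passed in the comparisons and directions of Rab27a, with 3.60, 3.83 and 3.74 in +dox trametinib, 4.19, 6.90 and 5.72 in +dox DMSO and 2.97, 3.21 and 3.26 in -dox DMSO. By group means it was higher in +dox DMSO by at least 0.73 (limma adjusted p = 0.0136), with array 1 of that group below the background level. Array 1 of +dox DMSO had the highest Rab27a and the lowest Itgam of the 3. Cd14 went the other way, with 6.58, 6.11 and 6.38 in +dox DMSO and 8.74, 7.32 and 7.28 in -dox DMSO, a change of -1.42 (limma adjusted p = 0.0420). Cd68 had 6.60, 7.89 and 8.88 in +dox DMSO and 5.63, 7.12 and 6.34 in -dox DMSO, which overlapped and did not pass, and Csf1r lay between 5.16 and 5.84 on the 12 arrays. The part of cells with these markers in the Rab27a result was not tested. The mean level of the 6 markers was 4.66 to 4.86 in +dox trametinib, 4.96 to 5.60 in +dox DMSO, 4.74 to 5.07 in -dox trametinib and 4.91 to 5.04 in -dox DMSO.

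Over the whole series, arrays correlated with the others of their group at 0.982 to 0.994 on average. All 6 genes chosen as ERK output fell with trametinib in both states. Of the 3 vector genes Pou5f1 (Oct4) was higher in +dox DMSO than in -dox DMSO, by at least 0.57 between the group means. The others read lower without passing. Without doxycycline, Pou5f1 averaged 5.50 in -dox trametinib, beside 5.45 in +dox DMSO. Under trametinib none of the 3 passed between +dox and -dox cells. Sox2 had 6.46, 5.64 and 5.51 in +dox DMSO and 6.48, 8.07 and 7.65 in -dox DMSO, without overlap, a difference of -1.53 (limma adjusted p = 0.0909), and Klf4 averaged 9.30 in +dox DMSO and 9.45 in -dox DMSO. Which copies, vector or endogenous, these probe sets read was not tested.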

How the data were processed

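RNA of C790 cells was hybridised to 12 Affymetrix GeneChip mouse genome arrays. The deposited values are log2 expression, normalised by the authors with RMA in Chipster, and were used as given. The number of arrays limits the precision. Of 45101 rows, 35890 were paired with a gene symbol by the platform annotation, 9211 were not listed, 932 of those listed named several genes, and all of these and the control rows (13 listed and 51 not listed) were left out. A gene took its probe set with the highest mean (18193 genes, 34945 probe sets). The background level, 4.88, is the 95th percentile over 83 receptor probe sets, with pseudogenes left out of that set after the values were seen.

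All 12 arrays were fitted with a mean per group in limma 3.58.1 (R 4.3.3), with eBayes and Benjamini-Hochberg adjustment over all genes, and an adjusted p under 0.05 was called. Where 1 mean was below the background, the other mean's distance from it bounds the change between the means from below. This bound holds for the chosen level, has no interval and leaves out the spread between arrays. The fit was tested on simulated data. Figures were drawn with matplotlib 3.10.9. All 10 genes are named whatever their values, and from each of the 3 pathway lists at most 4 genes a comparison are named, those with the largest change among the called with a group mean above background, and a gene named for 1 comparison is then given in others too. Others (Kit, Ednrb, Foxd3, Kitl, Tfec, Mlph, Oca2, Slc45a2, Gpr143, Tbx2) were named after their values were seen. Members and lists were chosen with earlier results of these data known, and the promoter motifs after the values were seen.

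The titles number the replicates 1 to 3. Same-numbered arrays deviated together in 3 comparisons (r of 0.17 to 0.344, 0.212 to 0.286 and 0.16 to 0.451), and with trametinib in -dox cells 1 pair had r = 0.022. By the rule that each pair must exceed 0.1, the numbers pair the arrays in the first 3 comparisons, from the data and not from a stated batch. Promoter sequences are from RefSeq (GRCm38.p6).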

Additional observations from a re-analysis of the deposited data

How the results depend on the processing

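The calls of Rab27a (both comparisons) and of Mitf with trametinib in +dox cells held, in the same direction, under each of 21 alternatives, with Mitf between 0.84 and 1.47. Rab27a lay between 0.84 and 2.45 for induction under DMSO and between -2.31 and -0.81 with trametinib in +dox cells. Its smallest values, 0.84 and -0.81, came with probe sets averaged per gene, where the gene is below the background in every group and the call says nothing of a readable level, and without 1 array they lay between 1.73 and 2.45 and between -2.31 and -1.59. The count of members called with trametinib in -dox cells was 0 and became 1 with probe sets averaged per gene, with only the genes above background tested and with a further quantile normalization, and 2 with arrays centred on their median and with arrays weighted by quality. Mitf was 1 of those called in each, joined under the weights by Pmel, at -0.27, and under centring by Mlana, which is below the background. For +dox against -dox under DMSO the count became 2 with centring, through Pax3. For the difference between the trametinib responses it was 0 and became 1, Rab27a, with centring and with weights. Leaving out 1 array at a time gave counts of 1 to 1 for induction under DMSO, 0 to 0 under trametinib, 2 to 2 with trametinib in +dox cells, 0 to 1 in -dox cells and 0 to 1 for the difference. Mitf in -dox cells was called without +dox DMSO array 3 (adjusted p = 0.0429) and without +dox trametinib array 1 (0.0409), arrays of the other state that enter through the shared estimate of spread, and the Rab27a difference without +dox DMSO array 1 (-1.48) and without +dox DMSO array 2 (-2.20). Changes that turned sign were all small and uncalled. With the mean of probe sets Sox10 was 0.028 for induction under DMSO and Pax3 -0.05 with trametinib in -dox cells. Quantile normalization gave Pmel 0.043 for induction under DMSO and -0.040 for the difference, and centring gave it 0.057, -0.050 under trametinib and -0.11 for the difference. Weights gave Pax3 -0.22 with trametinib in -dox cells and Sox10 0.019 for the difference. Over the fits without 1 array the ranges were, for Sox10, -0.21 to 0.072 (induction under DMSO), -0.032 to 0.25 (trametinib in +dox cells) and -0.20 to 0.090 (difference). They were, for Pmel, -0.14 to 0.042 (induction under DMSO), -0.11 to 0.027 (trametinib in +dox cells) and -0.0017 to 0.18 (difference), and for Pax3 -0.10 to 0.22 (trametinib in -dox cells). In the fit with a replicate block the counts of members called were 1, 0, 2, 0 and 0, as without it, and it changed no member's call. It moved 3 counts of the lists by over 1.5 times: melanosome genes lower with induction under DMSO became 2, and lineage regulators higher with trametinib became 5 in +dox and 2 in -dox cells. Over all alternatives and single arrays left out 104 of 654 counts of the lists moved that far. With probe sets averaged per gene 4 members were above the background level. After the values were seen, 27 planned results of members below the background in both groups were kept apart because no change is given for them. Of their 537 values 39 had the opposite sign, and 2 passed the test, Tyrp1 with trametinib in +dox cells with the mean of its probe sets (0.31) and Mlana as above. The causes of these shifts were not tested. Levels near the background limit what these arrays can show for the pigment enzymes.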
